A study of Mus musculus with 23 samples.

Results

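Hepatic transcript levels of 6 genes that carry, take up, activate or sense thyroid hormone were compared in mice treated with the PXR ligand pregnenolone 16α-carbonitrile (PCN) and in vehicle-treated mice, with and without the receptor PXR. The genes were *Serpina7* and *Ttr* (plasma carriers), *Slc16a10* (a membrane transporter), *Dio1* (a deiodinase), and *Thra* and *Thrb* (the nuclear receptors). A probe was taken as a member when the gene name given for it in the array files was one of these 6 names. This gave 15 of 56605 probes, and 14 of the 15 passed the filter on dim probes that 32087 probes of 21056 genes passed.

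The arrays were 1-colour mouse gene expression arrays, with 1 liver RNA sample of 1 male mouse on each of 23 arrays. WT CONT (n = 6) and WT PCN (n = 5) mice were wild-type C57BL/6J animals bought at an age of 6 weeks, and *Pxr*-/- CONT (n = 6) and *Pxr*-/- PCN (n = 6) mice came from a colony kept on the same background in the animal facility. All mice had 2 weeks to acclimatize. The PCN groups were injected intraperitoneally with 100 mg/kg PCN in corn oil on each of 4 days, the CONT groups with corn oil, and the livers were collected at ZT6, 6 h after the last dose. The genotypes thus came from different colonies, so that genotype and colony cannot be told apart, and the labels give no age for the *Pxr*-/- mice.

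The thyroid releases mainly thyroxine (T4), which travels in blood bound to thyroxine-binding globulin (*Serpina7*), transthyretin (*Ttr*) and albumin, all made by the liver. Hepatocytes take the hormone up through transporters such as MCT10 (*Slc16a10*) and organic anion transporters. The type 1 deiodinase (*Dio1*) removes iodine to form the active hormone T3, and conjugating enzymes add glucuronate or sulfate so that the hormone leaves with bile and urine. T3 acts through the receptors TRα (*Thra*) and TRβ (*Thrb*), which bind DNA with RXR and exchange corepressors for coactivators. Ligands of PXR are known in rodents for raising glucuronidation of T4.

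Signals are given as normalized log2 signal, and each gene was read from its brightest probe unless another probe is named. A gene was called when the adjusted p (limma, Benjamini-Hochberg over all probes) was at most 0.05 and the fold change exceeded 1.5. The share of all genes with an unadjusted p under 0.05 was not computed. Counts at that limit are therefore descriptions and not results about a set of genes. *Cyp3a11*, a classical PXR target, rose by 3.55 ± 0.23 (SE) on the log2 scale after PCN in WT mice and differed by 0.31 ± 0.22 in *Pxr*-/- mice, which was not called. The only probe for the PXR gene *Nr1i2* was bright on all 23 arrays and did not separate the genotypes (difference in control mice -0.03). Where the deleted part of the gene lies was not given in the sources used here, so that probe cannot check the genotype labels. The thyroid markers *Tg*, *Tshr*, *Slc5a5*, *Pax8* and *Nkx2-1* did not pass the filter, whereas all 10 hepatocyte markers did. Their summed signal (log2) ranged from 20.50 to 20.72 in WT CONT, from 20.48 to 20.60 in WT PCN, from 20.60 to 20.65 in *Pxr*-/- CONT and from 20.59 to 20.70 in *Pxr*-/- PCN mice. The sum adds linear signals and so mostly follows the brightest markers, such as *Alb* and *Serpina1a* (means of 18.56 and 18.55 in WT CONT mice). Since whole liver was measured, fewer cells of a type and less RNA per cell cannot be told apart.

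The 14 usable probes were well above background on all 23 arrays and none was saturated. *Dio1*, *Thra* and *Slc16a10* had 3 usable probes each, *Thrb* and *Ttr* had 2 each and *Serpina7* had 1. A further *Thra* probe, which the files place between positions 98602754 and 98611428 of chromosome 11, was not well above background on any array. No annotation of the build of the probe positions (mm9) was used here, so exons were not assigned.

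The brightest *Thra* probe, A_51_P475995, lay at chr11:98626356-98626415 on the + strand, and the other *Thra* probes lay upstream of it, A_52_P666930 at chr11:98625642-98625701 and A_66_P102879 between positions 98617475 and 98618281. The only *Serpina7* probe lay between positions 135615848 and 135616502 of chromosome X on the - strand. The sequences of the upstream *Thra* probes are printed because these probes gave smaller changes than the brightest one, and that of *Serpina7* because a single site carries its result. They run 5′ to 3′ as given in the array files, in lower case throughout because no base is singled out, and hold 53.3%, 48.3% and 35.0% G and C in the order printed.
*Thra* probe A_52_P666930: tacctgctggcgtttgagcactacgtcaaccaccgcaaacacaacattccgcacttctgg
*Thra* probe A_66_P102879: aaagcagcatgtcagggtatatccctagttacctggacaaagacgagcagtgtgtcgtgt
*Serpina7* probe A_51_P162955: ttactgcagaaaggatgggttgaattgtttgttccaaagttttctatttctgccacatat

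After PCN in WT mice, 1 of the 6 genes was called, *Thra*, which fell 1.59-fold. After PCN in *Pxr*-/- mice, 1 of the 6 was called, *Serpina7*, which fell 2.64-fold. None of the 6 was called higher by its brightest probe in either genotype. Over all genes tested, 3.79% were called higher and 2.39% lower in WT mice, and 1.42% were called higher and 0.86% lower in *Pxr*-/- mice, so a single call among 6 genes cannot be read as a result about the group. For the difference between the PCN effects (WT minus *Pxr*-/-), 0 of the 6 genes were called by their brightest probe, against 0.807% of all genes higher and 0.242% lower. At an unadjusted p under 0.05 in the limma fit, 1 of the 6 passed, *Thrb*. The second *Ttr* probe, by contrast, was called for this difference.

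**Figure D1:**
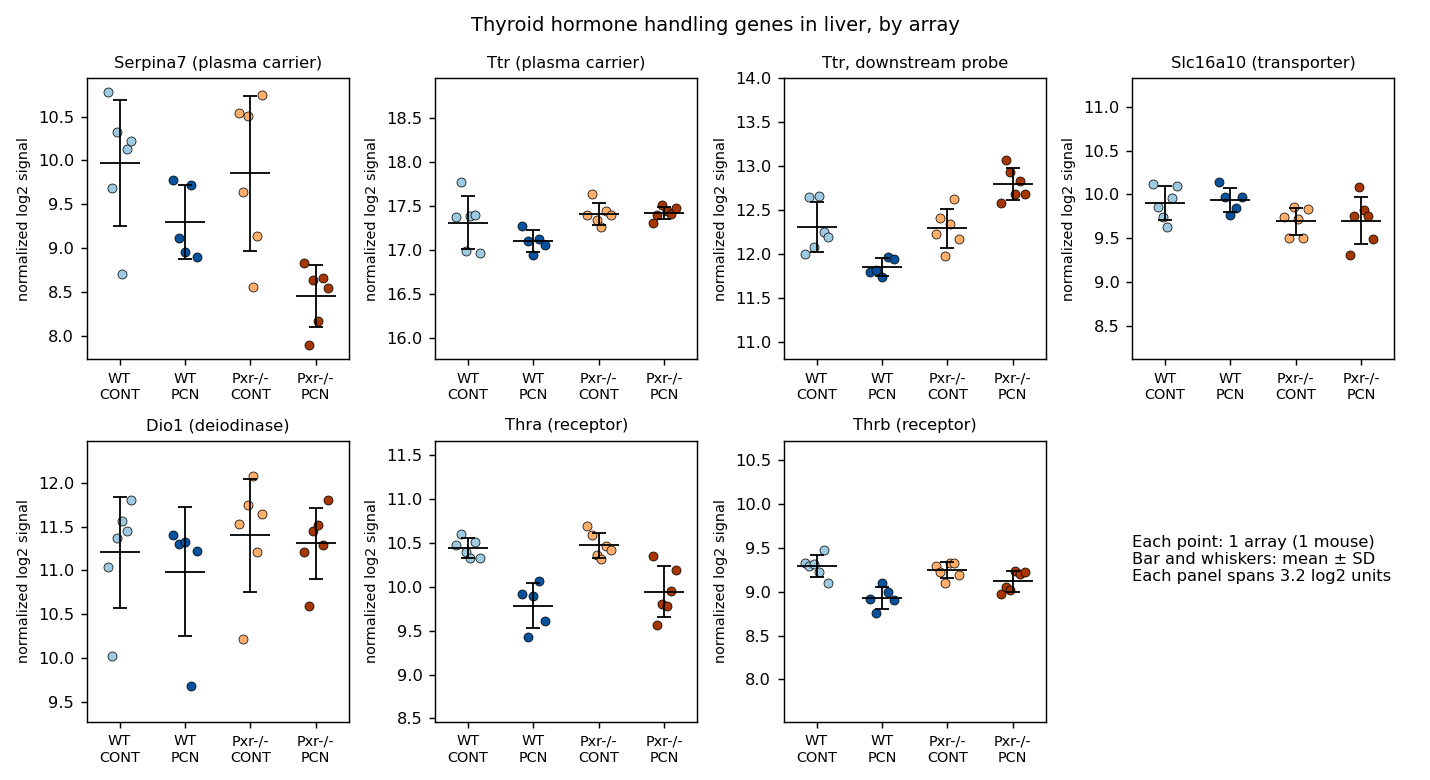
Normalized log2 signal (y axis) of each member gene in every array, by group (x axis), with points for mice and a bar with whiskers for mean ± SD. The mean of *Thra* was lower in both PCN groups than in their controls, that of *Serpina7* was lowest in *Pxr*-/- PCN mice, and *Dio1* was widely spread within groups.

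*Serpina7*, which encodes thyroxine-binding globulin, was the member with the largest change in group means. Its signal in WT CONT mice ran from 8.70 over a median of 10.17 to 10.78, and the 5 WT PCN mice had 9.78, 9.12, 8.96, 9.72 and 8.90. In *Pxr*-/- CONT mice it ran from 8.56 over a median of 10.08 to 10.74, and in *Pxr*-/- PCN mice from 7.89 over 8.59 to 8.82. All 6 *Pxr*-/- PCN mice thus lay below every WT PCN mouse, and 5 of the 6 *Pxr*-/- CONT mice lay above every *Pxr*-/- PCN mouse. It fell by 1.40 ± 0.34 (SE) on the log2 scale in *Pxr*-/- mice (limma, adjusted p = 0.0157). In WT mice the change was -0.71 ± 0.35 (adjusted p = 0.158) and was not called. The difference between the effects, 0.69 with a 95% interval from -0.32 to 1.70, was not called either (adjusted p = 0.559), so the data do not show that the genotypes responded differently. Within the washing batches the change in *Pxr*-/- mice was -0.87 and -1.93, and neither batch alone gave a call (adjusted p = 0.369 and 0.0817).

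*Ttr* encodes transthyretin, which carries T4 and, with retinol-binding protein, vitamin A. Its brightest probe, at chr18:20828519-20828577 on the + strand, averaged 17.31 ± 0.30 (SD) in WT CONT, 17.10 ± 0.12 in WT PCN, 17.41 ± 0.13 in *Pxr*-/- CONT and 17.42 ± 0.07 in *Pxr*-/- PCN mice. The change after PCN was -0.21 in WT mice (adjusted p = 0.184) and 0.01 in *Pxr*-/- mice (adjusted p = 0.974). The WT value was -0.12 without WT CONT replicate 2, and -0.10 and -0.35 in the washing batches. The second *Ttr* probe, which lies downstream at chr18:20832612-20832672 on the + strand, was called for the difference between the genotypes. It ran from 12.00 over 12.22 to 12.66 in WT CONT mice, was 11.80, 11.82, 11.73, 11.96 and 11.94 in WT PCN mice, and ran from 11.97 over 12.29 to 12.62 in *Pxr*-/- CONT and from 12.59 over 12.76 to 13.07 in *Pxr*-/- PCN mice. Every WT PCN mouse lay below every WT CONT mouse, while the *Pxr*-/- PCN mice lay at the top, overlapping the *Pxr*-/- CONT mice only at the edge. The change was -0.45 ± 0.13 in WT mice (adjusted p = 0.0124) and 0.50 ± 0.12 in *Pxr*-/- mice (adjusted p = 0.0148), both under the fold limit. The difference between these effects was called, at -0.95 ± 0.17 (adjusted p = 0.00358), with -0.67 in the first and -1.28 in the second washing batch, where it was no longer called (adjusted p = 0.109 and 0.0888).

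The difference between the 2 *Ttr* probes on each array is given as a description, with no test, because it was chosen after their values were seen. In *Pxr*-/- CONT mice the downstream probe minus the brightest probe averaged -5.12 ± 0.21 (SD, n = 6), and in mice of that genotype given PCN it averaged -4.63 ± 0.18 (n = 6). All 6 *Pxr*-/- PCN mice lay above the *Pxr*-/- CONT mice. In WT mice the averages were -5.01 ± 0.25 (n = 6) and -5.25 ± 0.14 (n = 5), and the groups overlapped. The other carriers in the list, *Alb* (albumin) and *Rbp4* (the retinol-binding partner of transthyretin), changed by -0.08 and -0.05 in WT mice and by -0.08 and 0.00 in *Pxr*-/- mice. None of these values was called. Over the 4 carrier genes, 0 were called in WT mice by limma, 0 had an unadjusted p under 0.05, and 1 was called lower in *Pxr*-/- mice, with median changes of -0.15 and -0.04, against medians of -0.02 and -0.01 over all genes. Of all genes, 2.39% were called lower in WT and 0.86% in *Pxr*-/- mice.

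**Figure D2:**
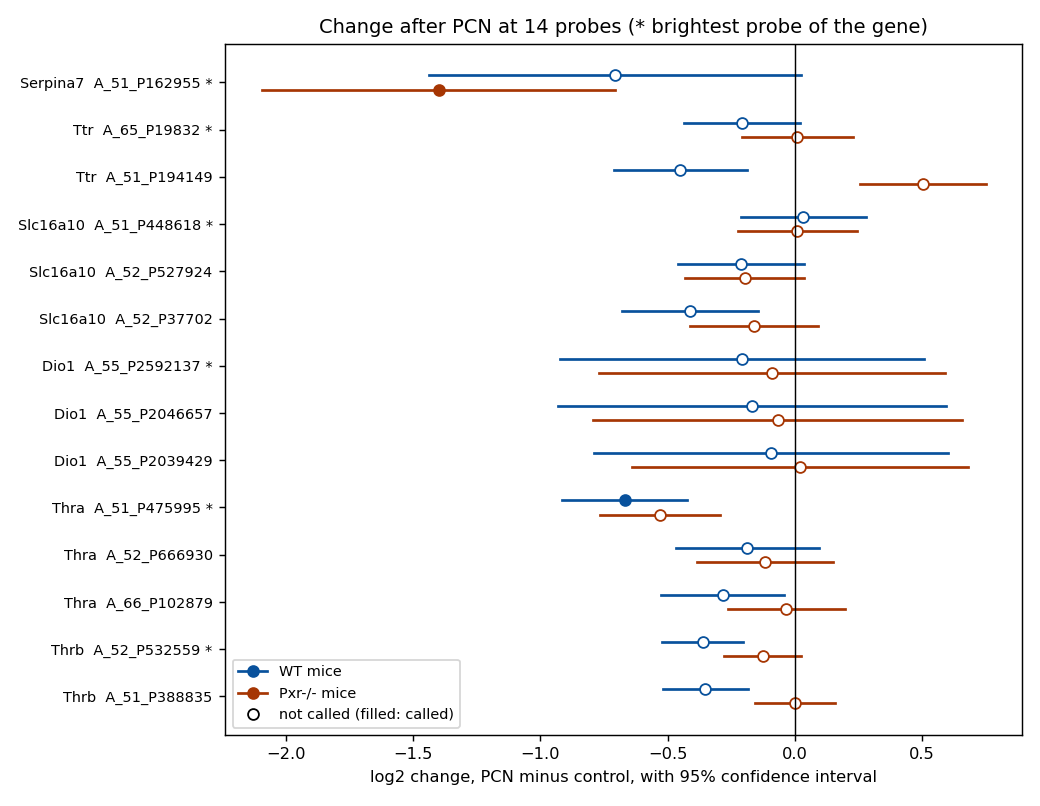
Change after PCN on the log2 scale (x axis) at each of the 14 probes (y axis), with 95% confidence intervals, in WT and *Pxr*-/- mice. Filled points are called. The second *Ttr* probe lies on opposite sides of 0 in the genotypes, and the 3 *Thra* probes differ in size.

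*Slc16a10*, the transporter MCT10, which moves T3, T4 and aromatic amino acids, showed no call at any of its 3 probes. The brightest averaged 9.90 ± 0.19 (SD) in WT CONT, 9.94 ± 0.14 in WT PCN, 9.69 ± 0.15 in *Pxr*-/- CONT and 9.70 ± 0.27 in *Pxr*-/- PCN mice, and all 4 groups overlapped. It lay at chr10:39756480-39756539 on the - strand. Its change after PCN was 0.03 in WT mice (95% interval -0.21 to 0.28) and 0.01 in *Pxr*-/- mice (-0.23 to 0.24). The probe at chr10:39796577-39796636 changed by -0.21 and -0.20 (adjusted p = 0.216 and 0.326). The probe farthest upstream in the gene, at chr10:39852910-39852969 (- strand), changed by -0.41 ± 0.13 in WT mice (adjusted p = 0.0235), under the fold limit, and by -0.16 in *Pxr*-/- mice (adjusted p = 0.484). Each of the 3 probes is listed with a different transcript.

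Calls among the transporters fell on other genes. Of 13 transporters tested, 2 were called higher and 1 lower after PCN in WT mice, against 3.79% and 2.39% of all genes, and the median change was 0.00. *Slco1a4*, an organic anion transporter, rose by 2.78 ± 0.32 in WT mice (adjusted p = 4.09e-06) and by 1.31 ± 0.31 in *Pxr*-/- mice (adjusted p = 0.0140), where it was the only one called. These effects differed by 1.47, which missed the threshold (adjusted p = 0.107). *Abcc3*, which exports glucuronides across the basolateral membrane, rose by 1.38 ± 0.13 in WT mice (adjusted p = 2.88e-07), and here the difference from *Pxr*-/- mice was called (0.99 ± 0.18, adjusted p = 0.00366). In WT mice *Slco1a1*, another organic anion transporter, fell by 0.90 on the log2 scale (SE 0.17, adjusted p = 0.000697) and differed by -0.31 in *Pxr*-/- mice (adjusted p = 0.278). The median over transporters in *Pxr*-/- mice was -0.06, and of all genes 1.42% were called higher there and 0.86% lower.

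*Dio1*, the deiodinase of liver and kidney, varied more between mice of a group than between groups. At the brightest probe the WT CONT mice ran from 10.02 over a median of 11.41 to 11.80, and the WT PCN mice had 11.41, 11.30, 11.32, 9.68 and 11.22. The *Pxr*-/- CONT mice ran from 10.22 over 11.59 to 12.07 and the *Pxr*-/- PCN mice from 10.60 over 11.37 to 11.80. All groups overlapped. The lowest mouse and the next had 10.02 and 11.04 in WT CONT and 9.68 and 11.22 in WT PCN mice. They had 10.22 and 11.21 in *Pxr*-/- CONT and 10.60 and 11.21 in *Pxr*-/- PCN mice. By Dixon's test only the lowest WT PCN mouse stood apart at this probe. The change after PCN was -0.21 in WT mice, with a 95% interval from -0.92 to 0.51, and -0.09 in *Pxr*-/- mice, from -0.77 to 0.59. Both intervals reach past a 1.5-fold decrease (log2), and the second also past a 1.5-fold increase, so a change of that size could not be told from none. Without WT PCN replicate 4, the lowest WT PCN mouse, the WT value turned to 0.11, and it was also positive (0.18) in the second washing batch, whereas it was -0.52 in the first. The 3 *Dio1* probes varied together from mouse to mouse, with Pearson correlations over the 23 arrays from 0.955 to 0.990, so the low mice were low at every site. The brightest lay at chr4:106964832-106964891, and the others at chr4:106964935-106964994 and chr4:106979388-106979447, all on the - strand. Their changes were -0.17 and -0.09 in WT mice and -0.07 and 0.02 in *Pxr*-/- mice.

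Of 6 deiodination genes tested, 0 were called in either genotype, with median changes of 0.03 in WT and -0.06 in *Pxr*-/- mice. Of all genes, 3.79% were called higher and 2.39% lower in WT mice, and 1.42% and 0.86% in *Pxr*-/- mice. In the limma fit 1 of the 6 had an unadjusted p under 0.05 in each genotype. The list held *Dio1*, *Iyd*, which recovers iodide from iodotyrosines, and the selenoprotein factors *Secisbp2*, *Sephs2*, *Sepsecs* and *Eefsec*, of which *Eefsec* was nearest to a call (0.23 ± 0.06 in WT mice, adjusted p = 0.0108, under the fold limit). The deiodinases *Dio2* and *Dio3* did not pass the filter on dim probes.

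Conjugation of thyroid hormone was represented by 15 tested genes out of 20 listed, chosen from enzyme families that conjugate it. Whether each enzyme acts on the hormone was not tested. *Ugt1a1*, *Ugt1a2*, *Ugt1a5*, *Ugt1a7c* and *Ugt1a9* were not found by name on the array, so the list says nothing about them. In WT mice 4 were called higher (against 3.79% of all genes) and 0 lower (2.39%) after PCN, with a median change of 0.31. They were the glucuronosyltransferases *Ugt2b34* (0.60 ± 0.11, adjusted p = 0.000560) and *Ugt2b35* (0.78 ± 0.12, adjusted p = 8.76e-05) and the sulfotransferases *Sult1d1* (0.71 ± 0.16, adjusted p = 0.00283) and *Sult1e1* (1.18 ± 0.27, adjusted p = 0.00300). Among these, the difference between the genotypes was called for *Ugt2b35* alone (0.83 ± 0.16, adjusted p = 0.00744). The signal of *Sult1e1* was low, with means of 5.31 in WT CONT and 6.46 in WT PCN mice. The count of conjugation genes called higher in WT mice ran from 3 to 5 when single arrays were left out. Under the other settings, which include the single washing batches and no fold threshold, it ran from 2 to 6. *Ugt1a10* had the largest change in WT mice, 1.51, but missed the threshold (adjusted p = 0.0527), and *Ugt1a6b* passed the threshold at a smaller change (0.45 ± 0.07, adjusted p = 0.000205). In *Pxr*-/- mice 0 were called higher (against 1.42% of all genes) and 2 lower (0.86%), *Ugt2b1* (-0.67 ± 0.20, adjusted p = 0.0471) and *Sult1c2* (-0.62 ± 0.16, adjusted p = 0.0226), with a median of -0.05. This count fell to 0 or 1 when any of 18 of the 23 arrays was left out. Members of the *Ugt* and *Slco1a* families are similar in sequence, and how far their probes share signal is not known here.

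**Figure D3:**
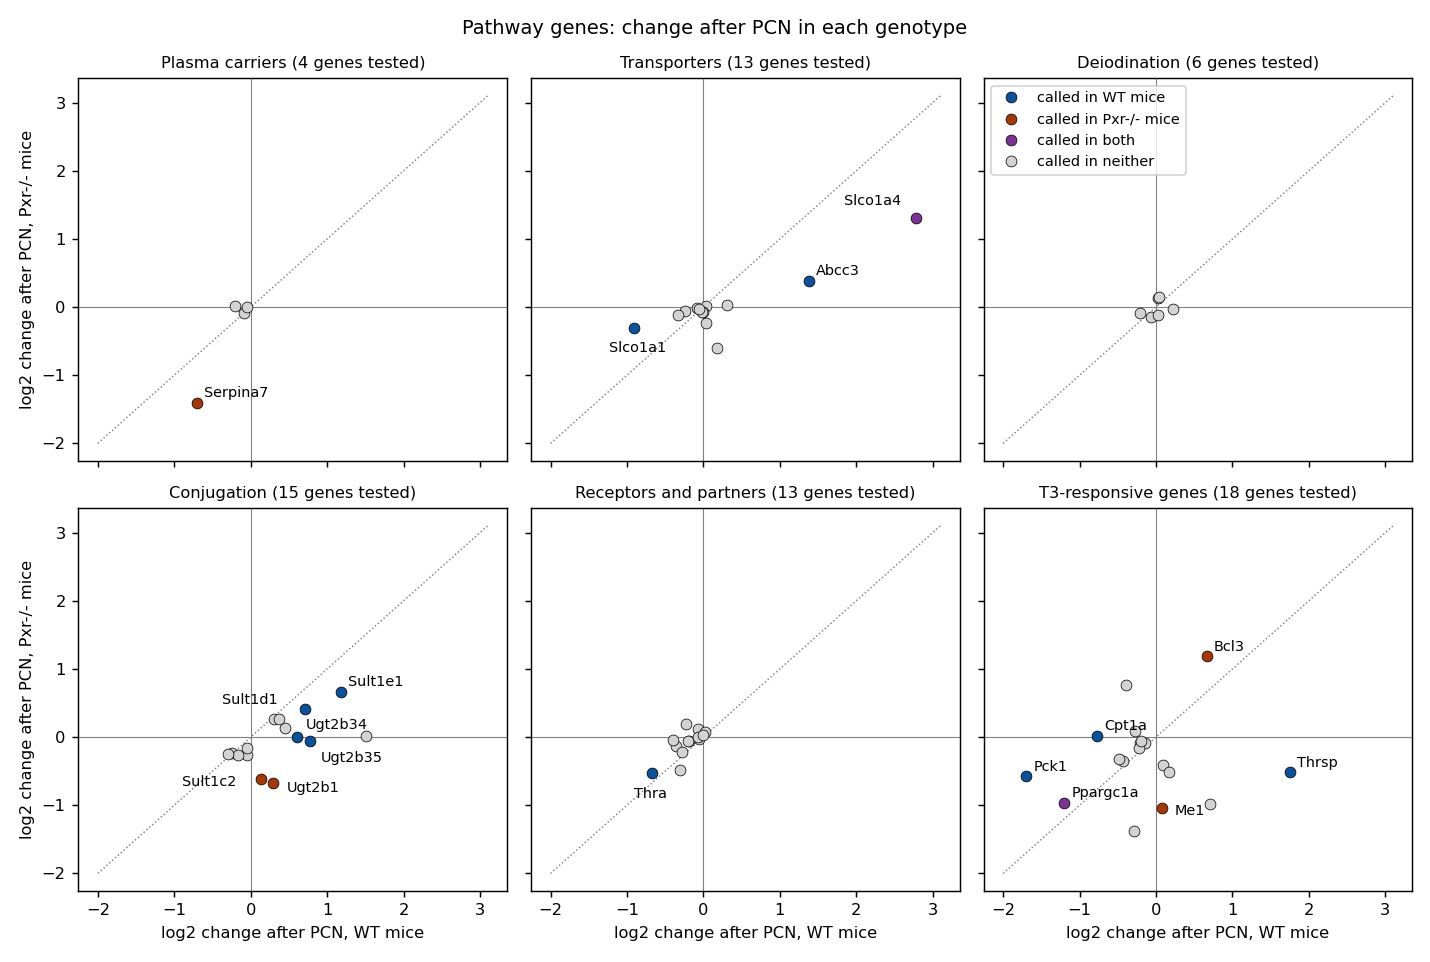
Change after PCN on the log2 scale in WT mice (x axis) and *Pxr*-/- mice (y axis) for the genes of each step, with points for genes and a dotted line where both changes are equal. Named genes are called in at least 1 genotype. *Slco1a4* (2.78) and *Thrsp* (1.75) rose most in WT mice, and *Thra* was the only receptor gene called.

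*Thra*, which encodes the receptor TRα, was the member with the clearest change after PCN. At its brightest probe the WT CONT mice ran from 10.33 over a median of 10.44 to 10.61, and the WT PCN mice had 9.92, 9.43, 9.90, 10.07 and 9.61. The *Pxr*-/- CONT mice ran from 10.31 over 10.44 to 10.69, and the *Pxr*-/- PCN mice from 9.57 over 9.88 to 10.36. WT PCN mice did not overlap WT CONT mice, and *Pxr*-/- PCN mice overlapped their controls in 1 mouse. In WT mice it fell by 0.67 ± 0.12 (SE) on the log2 scale (adjusted p = 0.000398). Without PXR it changed by -0.53 ± 0.11 (adjusted p = 0.00792), under the fold limit with 1.44-fold, and the difference between the effects was -0.14 with a 95% interval from -0.48 to 0.20 (adjusted p = 0.757). Leaving out 1 array moved that difference to between -0.20 (without *Pxr*-/- PCN replicate 2) and -0.06 (without WT PCN replicate 2). In both washing batches the value was below 0, with -0.60 and -0.76 in WT and -0.49 and -0.57 in *Pxr*-/- mice.

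The upstream *Thra* probes, whose sequences are printed above, gave smaller values. Probe A_52_P666930 changed by -0.19 in WT mice (adjusted p = 0.349) and -0.12 in *Pxr*-/- mice, and A_66_P102879 by -0.28 (adjusted p = 0.0823) and -0.03. The correlation between the 3 probes over the 23 arrays was 0.375 to 0.485 and thus lower than between the *Dio1* probes. Averaging the *Thra* probes gave -0.38 in WT mice, which was not called, and the deposited values gave -0.52 for the brightest probe, also under the fold limit. On the opposite strand lies *Nr1d1*, which encodes the clock repressor REV-ERBα. Its probe lay between positions 98630526 and 98631028, downstream of the *Thra* probes. Gene bounds were not assigned, so how far the 2 genes overlap is not given here. After PCN *Nr1d1* fell by 0.78 (log2, SE 0.27, adjusted p = 0.0417) in WT mice, and its change in *Pxr*-/- mice was -0.69 (adjusted p = 0.112). Over the 23 arrays its correlation with *Thra* was 0.691, and 0.343 once group means were removed, and its part in the *Thra* result was not tested.

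*Thrb*, whose product TRβ is the main thyroid hormone receptor of hepatocytes, passed the adjusted p at both probes in WT mice after PCN, but not the fold limit. The probes lay at chr14:18868800-18868859, the brightest, and chr14:18866221-18866280 on the + strand. At the brightest WT CONT mice ran from 9.10 over 9.31 to 9.48 and WT PCN mice had 8.91, 8.76, 9.10, 8.99 and 8.90, while *Pxr*-/- CONT mice ran from 9.10 over 9.26 to 9.33 and *Pxr*-/- PCN mice from 8.97 over 9.13 to 9.24. WT PCN mice lay below all WT CONT mice, by a narrow margin, and the *Pxr*-/- groups overlapped. The change was -0.36 ± 0.08 in WT mice (adjusted p = 0.00167) and -0.13 ± 0.07 in *Pxr*-/- mice (adjusted p = 0.327). Over the other settings, single washing batches included, the WT change at this probe ran from -0.44 to -0.21. The highest adjusted p among them (limma) was 0.230. The second probe gave -0.35 ± 0.08 (adjusted p = 0.00299) and 0.00. The difference between the effects was -0.24 and -0.35 at these probes, and neither was called (adjusted p = 0.300 and 0.120).

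No receptor gene other than *Thra* was called. Of 13 receptors, RXR partners and coregulators tested, 0 were called higher and 1 lower (*Thra*) in WT mice, against 3.79% and 2.39% of all genes. Of the 13 changes 12 were below 0, against 54.4% of all genes, with a median of -0.20. *Rxra*, the main RXR of liver, changed by -0.40 ± 0.07 (adjusted p = 0.000271) and the coactivator *Ncoa1* by -0.28 ± 0.07 (adjusted p = 0.00444), both under the fold limit. In *Pxr*-/- mice 0 were called by limma (4 at an unadjusted p under 0.05), against 1.42% of all genes higher and 0.86% lower. There 8 of 13 changes were below 0, against 53.1% of all genes, and the median was -0.05. The direction for small values in WT mice depends on scaling, since the median change of all genes was -0.02 here and 0.12 with the deposited values.

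Genes known to be raised by T3 in liver moved in both directions. Of 18 tested, 1 was called higher and 3 lower after PCN in WT mice, with a median of -0.22, and 1 was called higher and 2 lower in *Pxr*-/- mice, with a median of -0.33. Over all genes the shares were 3.79% higher and 2.39% lower in WT mice, and 1.42% and 0.86% in *Pxr*-/- mice. *Thrsp* (Spot14), a nuclear protein of lipogenic tissue, rose by 1.75 ± 0.44 in WT mice (adjusted p = 0.00610). *Pck1*, the gluconeogenic enzyme PEPCK, fell by 1.70 on the log2 scale (SE 0.27, adjusted p = 0.000123) and *Cpt1a*, which admits fatty acids to mitochondria, fell by 0.77 (SE 0.11, adjusted p = 4.11e-05). *Ppargc1a*, the coactivator PGC-1α, fell in both genotypes, by 1.20 in WT and 0.96 in *Pxr*-/- mice on the log2 scale (adjusted p = 9.88e-05 and 0.00310). In *Pxr*-/- mice *Me1*, malic enzyme, fell by 1.03 (adjusted p = 0.0119) and *Bcl3*, an IκB family protein, rose by 1.19 (adjusted p = 0.00842). The difference between the effects was called for *Cpt1a* alone (-0.79 ± 0.15, adjusted p = 0.00520). *Dio1* belongs to this list as well and was not called.

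Genotype was compared within each treatment. In control mice 0 of the 6 genes were called, and the differences (*Pxr*-/- minus WT) ran from -0.21 for *Slc16a10* to 0.20 for *Dio1*. Over all genes 0.228% were called higher and 0.0807% lower, and 0 of the 6 had an unadjusted p under 0.05 in the limma fit. Of the pathway genes only *Slco1a4* was called, and it was lower in *Pxr*-/- CONT mice (-1.83 ± 0.31, adjusted p = 0.00460). In PCN-treated mice 0 of the 6 were called by their brightest probe, against 0.731% of all genes higher and 1.36% lower. In the limma fit the unadjusted p was under 0.05 for 3 of them, *Ttr* (0.32, adjusted p = 0.0743), *Thrb* (0.19, adjusted p = 0.128) and *Serpina7* (-0.81, adjusted p = 0.163). The second *Thrb* probe passed the adjusted p (0.30 ± 0.08, adjusted p = 0.0240), under the fold limit, with no overlap between the PCN groups. *Serpina7* was called in this comparison with the deposited values (-1.04) and when those groups alone were fitted. With the deposited values the median difference of all genes was itself -0.19, against 0.01 in the main fit. The downstream *Ttr* probe was called, with a signal higher by 0.94 ± 0.13 in *Pxr*-/- PCN than in WT PCN mice (adjusted p = 5.71e-05) and no overlap between these groups. Among the pathway genes *Slco1a4* (-3.30), *Abcc3* (-0.81) and *Ugt2b35* (-0.82) were called lower and *Slco1a1* (0.60), *Pck1* (1.27), *Cpt1a* (0.64) and *Ppargc1a* (0.60) higher in *Pxr*-/- PCN mice, and these comparisons share the PCN arrays with those above. *Slco1a1* was no longer called there when any of 6 arrays was left out (WT PCN replicates 2, 3 and 4 and *Pxr*-/- PCN replicates 1, 2 and 6). *Ppargc1a* only just passed (limma, adjusted p = 0.0498). The count of T3-responsive genes called higher ran from 2 to 3 when single arrays were left out. Under the other settings, which include the single washing batches and no fold threshold, it ran from 1 to 4.

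Ordered by group mean, *Serpina7* was highest in WT CONT, then *Pxr*-/- CONT, WT PCN and *Pxr*-/- PCN mice, with gaps of 0.12, 0.56 and 0.84, of which only the last separated groups that did not overlap. *Thra* was highest in *Pxr*-/- CONT mice, followed by WT CONT, *Pxr*-/- PCN and WT PCN mice, with gaps of 0.03, 0.50 and 0.16, and the control groups did not differ beyond their spread. *Thrb* ran from WT CONT over *Pxr*-/- CONT and *Pxr*-/- PCN to WT PCN mice in steps of 0.05, 0.13 and 0.19. For *Ttr*, *Dio1* and *Slc16a10* the largest gap between neighbours was 0.22, and neighbouring groups overlapped.

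The members differed in how much mice of a group varied. The within-group SD was 0.61 for *Dio1* and 0.64 for *Serpina7*, larger than that of 98.4% and 98.7% of all genes, against a median of 0.18. For *Slc16a10* it was 0.20, for *Thra* 0.21 and for *Ttr* 0.18, and for *Thrb* it was 0.12, larger than that of only 14.7% of genes.

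**Figure D4:**
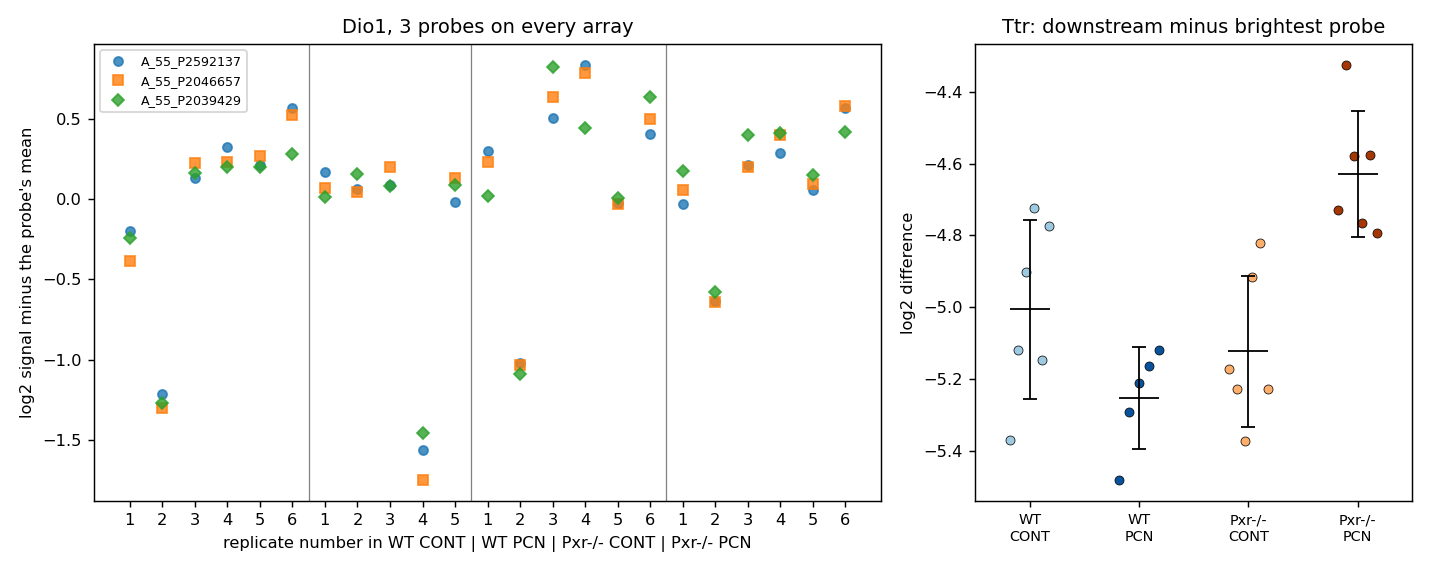
Left, log2 signal of the 3 *Dio1* probes minus each probe's mean (y axis) on every array (x axis, replicate number by group). Right, log2 difference between the 2 *Ttr* probes on each array by group, with mean ± SD. WT PCN replicate 4 is low at all 3 *Dio1* probes, and the *Ttr* difference is highest in *Pxr*-/- PCN mice.

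Across the 23 arrays, after removing washing batch means, the closest pair among the members was *Thra* and *Thrb* (Pearson r = 0.727, and 0.281 after group means were removed as well), followed by *Thra* and *Serpina7* (0.606 and 0.326). The lowest correlations were those of *Thra* and *Slc16a10* (-0.322, and -0.516 within groups) and of *Dio1* and *Ttr* (-0.270, and -0.540 within groups). These are descriptions over arrays that share groups, slides and normalization. Among 15052 named genes, those most like *Dio1* were *Mup5* (0.868), *Mup11* (0.867) and *Nxpe2* (0.863), and the likeness held within groups (0.866, 0.883 and 0.917). The first pair encode major urinary proteins, male-biased secreted liver proteins whose genes are nearly identical copies, so that their probes may share signal. Among the genes most like *Serpina7* were *Rabep2* (0.896) and 1190005I06Rik (0.841), and *Thra* was most like *Ube2r2* (0.933), *Peli1* (0.919) and *Msl1* (0.917). *Thrb* was most like *Arl5b* (0.864), *Dynll2* (0.862) and *Ccdc30* (0.859), *Ttr* most like *Uroc1* (0.861), *Akap11* (0.830) and 1700001L05Rik (0.816), and *Slc16a10* most like *Alg12* (0.845), *Rbm8a* (0.781) and *Itpa* (0.745). For these 5 members the values were lower within groups. They were 0.833 and 0.701 for the genes named with *Serpina7*, and ran from 0.679 to 0.774 for *Thra* and from 0.594 to 0.625 for *Thrb*. For *Ttr* they ran from 0.697 to 0.789, and for *Slc16a10* from 0.645 to 0.808.

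Markers of other cells moved in places with PCN, after which 3.79% of all genes were called higher in WT mice and 1.42% in *Pxr*-/- mice. *Col1a1* and *Col3a1*, collagens of stellate cells, rose in WT mice (3.17 and 2.18) and in *Pxr*-/- mice (1.96 and 1.22), as 2 of 8 stellate markers, and the summed stellate signal (log2) ranged from 14.40 to 15.16 in WT CONT, 14.81 to 15.28 in WT PCN, 14.17 to 14.90 in *Pxr*-/- CONT and 14.23 to 15.23 in *Pxr*-/- PCN mice. *Sox9* rose in WT mice (0.76) and was lower in *Pxr*-/- PCN than in WT PCN mice (-0.76, adjusted p = 0.0279), as 1 of 5 cholangiocyte markers, with summed signals from 10.50 to 12.20 in WT CONT, 11.68 to 12.96 in WT PCN, 10.80 to 11.70 in *Pxr*-/- CONT and 11.13 to 12.51 in *Pxr*-/- PCN mice. These sums add linear signals and so mostly follow the brightest marker of each list. In WT CONT mice that was *Dcn* for stellate cells (mean 14.37) and *Spp1* for cholangiocytes (mean 11.10). The hepatocyte marker *Apoa1* rose in *Pxr*-/- mice (0.62), and *Tat* was higher in *Pxr*-/- PCN than in WT PCN mice (0.73). Of the markers tested for pancreas (5), Kupffer cells (8), endothelial cells (8), lymphocytes (5) and blood (4), 0 were called in any comparison by the limma fit, and at an unadjusted p under 0.05 the most in 1 comparison were 4 of the 8 endothelial markers, in *Pxr*-/- mice after PCN. The part of these cells in the *Thra*, *Serpina7* and *Ttr* results was not tested.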

How the data were processed

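Liver RNA of 23 mice was measured on Agilent 1-colour arrays, 1 array per mouse; the sixth WT PCN mouse was not analysed here. The deposited scanner files hold Feature Extraction (version 10.10.1.1) output. Their linear intensity values had not been normalized between arrays by the authors. The authors also deposited normalized log2 values, which their methods describe as filtered, batch-corrected and normalized with CrossNorm; these served as an alternative. From the scanner files the log2 median signal was taken, flagged outlier spots were left out, spots of a probe were averaged, a probe was kept where any group had it well above background in over 50% of its arrays, and quantile normalization followed. Between 29510 and 33321 probes were well above background per array; arrays give no read depth, and their number limits the precision.

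A linear model with a term per group and for the 2 washing batches (3 arrays of each group in each, except 2 of WT PCN in the second) was fitted to all 32087 probes with limma 3.58.1 in R 4.3.3, leaving 18 residual degrees of freedom, and 5 contrasts were tested. The fit was tested on simulated data. Intervals are 95%. A batch term makes fitted changes differ slightly from differences of means. The members and the gene lists (carriers, transporters, deiodination, conjugation, receptors, T3-responsive genes and cell markers) were chosen with earlier results of these data known. Every member probe was described, list genes were named when called in any contrast or as the defining gene of a step, and the 3 genes most like a member were taken by Pearson correlation. Other genes near a call were named after their values were seen. A few genes that these rules cover are not reported here. Gene names are those of the files, with 15099 of 21056 found in the RefSeq table of GRCm38, and probe positions are in mm9.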

Additional observations from a re-analysis of the deposited data

Results flagged for a closer look

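At 7 of 56 probe and group combinations examined with Dixon's test, 1 mouse stood apart from the others of its group. Chance gives about 5 percent for independent combinations. Probes of the same gene were read on the same mice, so the combinations are not independent and the 7 cannot be read as an excess. WT PCN replicate 4 was low at all 3 *Dio1* probes, with 9.68 at the brightest (the other mice 11.22 to 11.41), 9.04 at A_55_P2046657 (10.83 to 10.99) and 7.72 at A_55_P2039429 (9.19 to 9.33). At A_55_P2039429, WT CONT replicate 2 was also low with 7.91 (8.93 to 9.45), as was *Pxr*-/- PCN replicate 2 with 8.59 (9.32 to 9.59). At the *Thra* probe A_52_P666930, WT PCN replicate 3 was high with 7.98 (7.50 to 7.56), and at the *Slc16a10* probe A_52_P37702, WT CONT replicate 2 was high with 8.67 (8.16 to 8.32). The difference between the PCN effects in WT and *Pxr*-/- mice at the downstream *Ttr* probe, -0.95 on the log2 scale, passed its own test.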

How the results depend on the processing

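Over 35 member results, 1283 alternative values were computed, of which 1207 kept their direction and side of the threshold, 7 lost the call, 12 gained one and 57 changed sign, all of these among values not called. Where no other cause is given, the cause was not tested. The *Thra* change in WT mice was not called with the deposited values (-0.52) or the probe mean (-0.38). The *Serpina7* change in *Pxr*-/- mice was not called in washing batch 1 (-0.87) or 2 (-1.93) alone, nor was the downstream *Ttr* difference of effects (-0.67 and -1.28), and its genotype difference under PCN was not called in batch 2 (1.04); each batch holds fewer arrays. The count of member genes called in WT mice was 0 with deposited values, 0 with the probe mean and 2 with no fold threshold. In *Pxr*-/- mice it was 2 with the processed signal, 0 in either batch and 2 with no fold threshold. It was 1 for the difference of effects with the probe mean, and 1 for genotype under PCN with deposited values, with the groups compared only and with the probe mean.

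Signs changed as follows. In batch 1 alone: *Dio1* in *Pxr*-/- mice 0.042, *Ttr* in *Pxr*-/- mice -0.022, differences of effects for *Serpina7* -0.070 and *Slc16a10* -0.016, and in control mice by genotype *Dio1* -0.012 and downstream *Ttr* 0.22. In batch 2 alone: *Dio1* in WT mice 0.18, its difference of effects 0.41, its genotype difference under PCN -0.0042, *Slc16a10* in *Pxr*-/- mice -0.041, and by genotype in control mice *Thra* -0.0063, *Thrb* 0.00041 and *Serpina7* 0.60. With the probe mean *Slc16a10* was -0.20 in WT mice, -0.12 in *Pxr*-/- mice and -0.080 for the difference. With the processed signal *Ttr* was -0.012 and *Slc16a10* -0.0084 in *Pxr*-/- mice, and downstream *Ttr* 0.041 by genotype in control mice; with 75th percentile scaling these *Ttr* values were -0.012 and 0.0022. With the deposited values *Thra* was -0.11 by genotype in control mice and -0.080 under PCN, and *Thrb* -0.051 under PCN.

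Leaving out each array in turn gave, for *Dio1*, -0.46 to 0.11 in WT mice, -0.33 to 0.074 in *Pxr*-/- mice, -0.37 to 0.20 for the difference, and by genotype -0.069 to 0.43 in control and -0.00049 to 0.47 in PCN mice. *Slc16a10* ranged from -0.017 to 0.077 in WT mice, -0.067 to 0.096 in *Pxr*-/- mice and -0.067 to 0.10 for the difference, *Ttr* from -0.28 to -0.12 in WT and from -0.023 to 0.057 in *Pxr*-/- mice, and by genotype in control mice *Serpina7* from -0.35 to 0.19 and downstream *Ttr* from -0.078 to 0.060. The count called ranged from 1 to 2 in WT mice (2 without WT CONT replicate 4, with *Serpina7* at -0.93) and from 1 to 2 in *Pxr*-/- mice (2 without *Pxr*-/- PCN replicate 1 or 6, with *Thra* as low as -0.60).

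With the deposited values the median change of all genes moved to 0.12 in WT mice, and the share of calls that were higher went from 61.3% to 84.3% in WT mice, 62.4% to 73.6% in *Pxr*-/- mice, 76.9% to 87.7% for the difference, 73.8% to 45.0% by genotype in control mice and 34.9% to 5.02% under PCN, where 75th percentile scaling gave 47.1%. Deviations of same-numbered mice had a mean correlation of 0.0733 (33 pairs, -0.251 to 0.488), against -0.0139 for other pairs (165), and 7 of 23 arrays correlated best with their own number. Not every pair exceeded 0.1, so the numbers were not taken to pair the mice. With the replicate block the counts of member genes called stayed 1 in WT and 1 in *Pxr*-/- mice, with *Thra* at -0.65 in WT mice. The number of arrays, with 1 mouse each, limits what could be detected.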
